A study of Mus musculus with 12 samples.

Results

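The genes described here encode the biotin-dependent carboxylases of mouse mitochondria and the enzyme that attaches their biotin. They are Pcx (pyruvate carboxylase), Pcca and Pccb (the subunits of propionyl-CoA carboxylase), Mccc1 and Mccc2 (the subunits of methylcrotonoyl-CoA carboxylase) and Hlcs (holocarboxylase synthetase). They were chosen by gene name and are 6 of the 54532 genes in the count table. All 6 were among the 13571 genes with enough counts to be tested. The set was taken up with measured values in view: the cortical-to-total fold changes of these mRNAs and of Acaca, the cytosolic biotin enzyme acetyl-CoA carboxylase, were known when the names were selected. The cortical-to-total values of the 6 genes, and the change of that ratio with wounding, are therefore given as a description with no p-value. Where a count past the threshold is printed for a fraction comparison, nothing is read from it. For the 6 genes, tests are kept for the effect of wounding within a fraction. These tests use the same libraries as the fraction comparisons known beforehand. Their p-values are therefore not independent of the values in view when the genes were selected.

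The study measured mRNA in translating fractions of cultured mouse keratinocytes, in 12 libraries, 3 labelled biological replicates in each of 4 groups. All cells in all groups had the genotype WT DP-BirA(1-584), in which residues 1 to 584 of desmoplakin (DP), a desmosome protein, are joined to the biotin ligase BirA. All were grown to confluence, given doxycycline at 2 micrograms per mL to induce the fusion protein, and given calcium (1.2 micromolar in the labels) to differentiate. They were then scratch wounded or left unwounded and received biotin for 16 h. Translating material was collected from sucrose gradients and put on neutravidin, which captures biotin. What bound is the cortical fraction, and what did not bind is called the total fraction, so the total is depleted of the cortical part. The labels do not say whether the cells are a line or primary, how many clones were used, or whether replicates were separate cultures. The p-values then measure only the spread between these libraries. No group lacked the fusion protein, biotin or doxycycline.

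Biotin carboxylases use a biotin attached to a lysine of the enzyme to carry a carboxyl group from the site where it is activated to the site where it is transferred. Holocarboxylase synthetase makes that bond, and the lysine lies in a conserved stretch with methionine on each side. Pyruvate carboxylase makes oxaloacetate from pyruvate and so refills the citric acid cycle. Propionyl-CoA carboxylase acts in the breakdown of odd-chain fatty acids, isoleucine, valine, methionine and threonine, and methylcrotonoyl-CoA carboxylase acts in leucine breakdown. In the last 2 enzymes the biotin is on the alpha subunit (Pcca, Mccc1), and the partner subunit (Pccb, Mccc2) has none.

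The coding sequence around the biotin lysine is shown because the carrier subunits hold that lysine and their partners carry no biotin. Capitals mark the 9 bases of the methionine, lysine and methionine codons, and 24 bases on each side are in lower case, 5′ to 3′ on the coding strand, read from GENCODE M21 transcripts (GRCm38, the same build as mm10).
Pcx: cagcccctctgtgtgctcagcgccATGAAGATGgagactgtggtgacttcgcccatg
Pcca: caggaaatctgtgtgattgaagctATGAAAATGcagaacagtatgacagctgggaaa
Mccc1: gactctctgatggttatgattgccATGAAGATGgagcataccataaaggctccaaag
Acaca: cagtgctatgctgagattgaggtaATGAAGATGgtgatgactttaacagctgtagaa

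The searched letters were ATGAAAATG or ATGAAGATG, in frame on the coding strand. One match was found in each of these 4 coding sequences, and 0 in Pccb, Mccc2 and Hlcs. Over all 21492 coding genes scanned, 473 (2.20%) held a match, so the letters alone do not mark a biotin enzyme. Pcca uses AAA for the lysine and the other 3 use AAG. In Pcx the lysine is codon 1145 of 1178, and in Pcca it is codon 690 of 723, each 33 codons from the end. In Mccc1 it is codon 677 of 716, which is 39 from the end. In Acaca it is codon 785 of 2344, with 1559 codons after it. The Pcx stretch lies within exon 21 at chr19:4621154-4621210 on the plus strand. The Pcca stretch lies within exon 23 at chr14:122887059-122887115 on the plus strand. The Mccc1 stretch crosses a splice junction next to exon 18, between the ends chr3:35960109-35960968 on the minus strand.

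**Figure D1:**
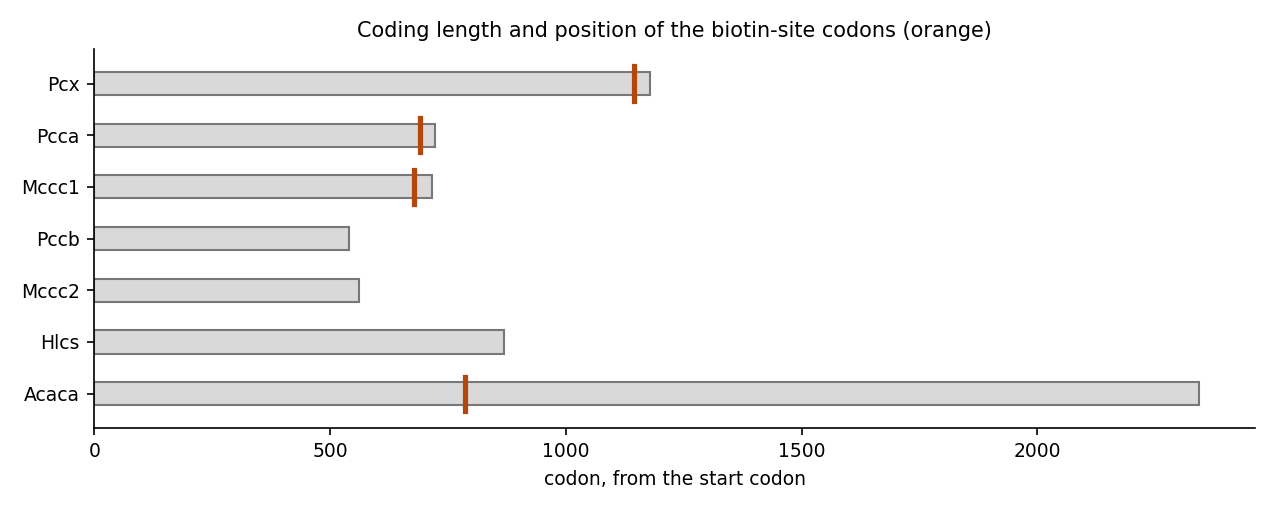
Coding length in codons (bars, horizontal axis counted from the start codon) of the 6 genes and Acaca, with the biotin-site codons in orange. The site lies 33 to 39 codons from the end in Pcx, Pcca and Mccc1, lies well inside Acaca, and was not found in Pccb, Mccc2 or Hlcs.

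In mm10 coordinates, as the count table gives them, Pcx is on chr19:4510472-4621752 (plus strand, 21 exons) and Pcca on chr14:122534324-122891100 (plus strand, 24 exons). Mccc1 is on chr3:35959312-36000678 (minus strand, 19 exons) and Pccb on chr9:100982032-101034898 (minus strand, 15 exons). Mccc2 is on chr13:99948530-100015639 (minus strand, 17 exons) and Hlcs on chr16:94128882-94313571 (minus strand, 11 exons). The libraries do not keep strand, so reads from overlapping genes on the other strand cannot be told apart. Pcca shares 241 exon bases with Ggact. Mccc1 shares 321 with B230207O21Rik, 198 with Mccc1os and 94 with Gm15952. The other 4 genes share 0.

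Library totals ran from 8980013 to 23457548 counts. The first wounded total library stood apart, with 13117 genes detected against 14393 to 16867 in the others. The 8 keratinocyte markers (Krt5, Krt14, Trp63, Itga6, Itgb4, Dsg3, Dsp and Perp) were all detected and summed to 10059 to 20761 CPM (the count relative to the TMM-scaled library size). Their sum was lowest in unwounded total libraries (up to 11171) and highest in wounded cortical ones (20472 or more). Marker sums of other cells were at most 6.47 CPM for fibroblasts (Dcn and Thy1 at 0), 2.27 for melanocytes (Tyr and Tyrp1 at 0), 1.87 for endothelial cells (Cdh5 at 0) and 0.285 for immune cells (Lyz2, Cd207 and Itgam at 0). Of 5 adipocyte markers, Adipoq, Plin1, Cidec and Lep were at 0. Fabp4 gave a sum of 6.91 to 11.8 CPM in wounded total libraries and 1.58 to 5.58 elsewhere. The part of these markers in the results below was not tested. These are bulk samples, so fewer cells holding an mRNA and less of it per cell cannot be told apart.

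The 6 mRNAs were of low to middling abundance, with 48 to 709 counts per library. On the deposited FPKM (counts scaled to gene length and library size), the mean over 12 libraries was 4.54 ± 1.49 (SD) for Pcx, 4.22 ± 1.09 for Pccb, 4.20 ± 1.12 for Mccc2 and 3.41 ± 0.913 for Pcca. Hlcs at 0.748 ± 0.257 and Mccc1 at 0.597 ± 0.150 were lower. The median tested gene had 3.45. Neighbours among the first 4, and Hlcs and Mccc1, were closer to each other than the larger of their SDs. The order depends on the length used: the deposited length of Mccc1 is 10952 bases, while the mRNA that holds the coding sequence above has 2455. Per kilobase of such an mRNA, Pcca came first with 6.91 ± 1.87 CPM, followed by Mccc2 (5.59 ± 1.51), Pcx (5.12 ± 1.68) and Pccb (5.08 ± 1.29). Mccc1 (2.69 ± 0.690) and Hlcs (1.67 ± 0.576) again came last.

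**Figure D2:**
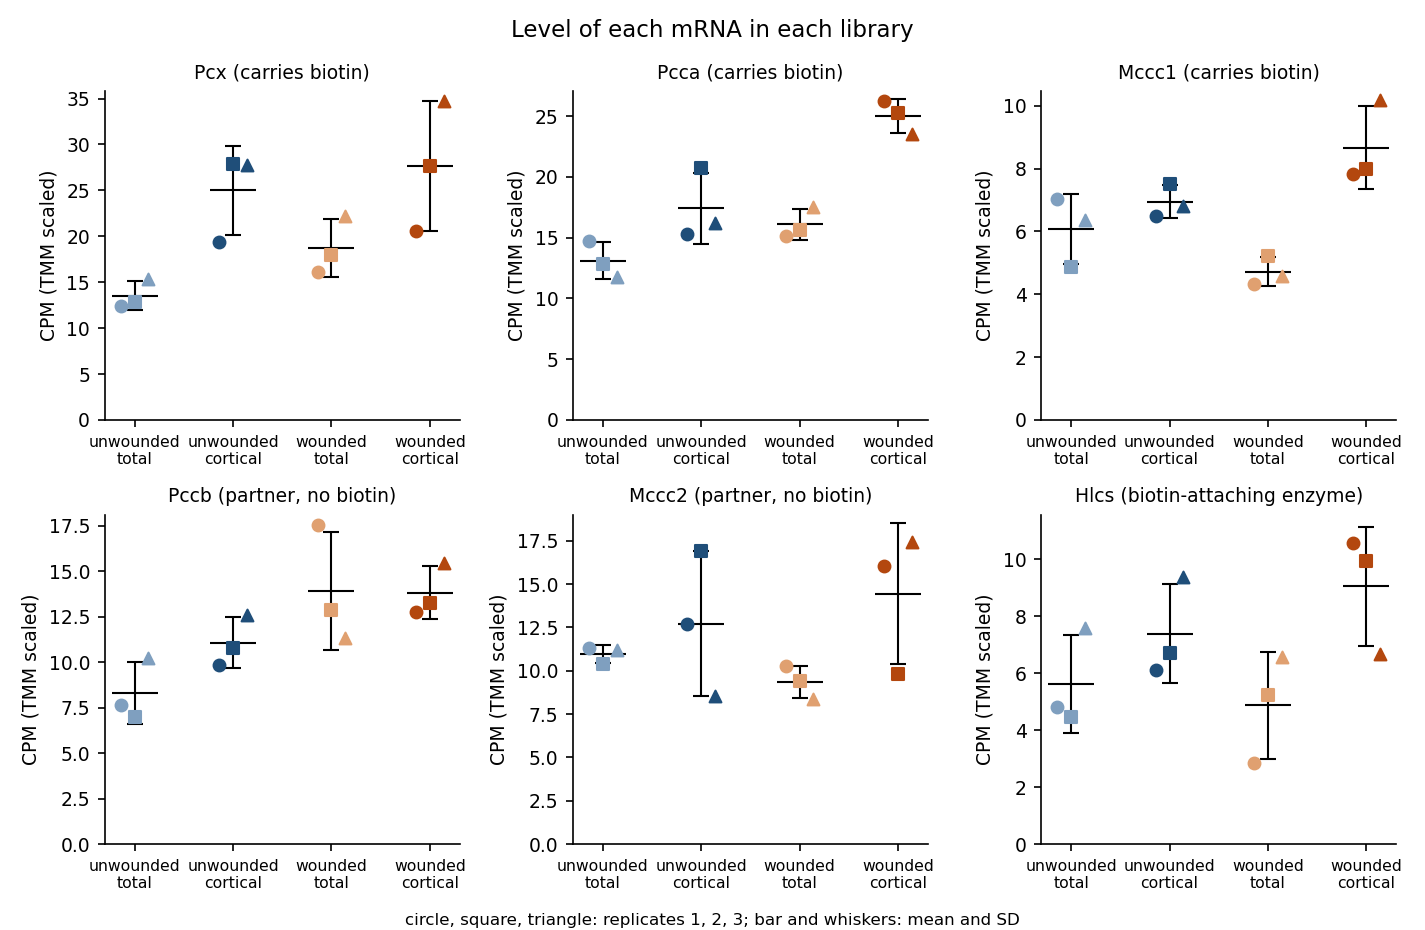
Level of each mRNA in CPM (vertical axes, each from 0) in every library of the 4 groups, with mean and SD, n = 3. Pcx is lowest in unwounded total libraries, Pcca is highest in wounded cortical ones, and Pccb is higher in wounded total than in unwounded total libraries.

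Pcx, the enzyme that refills the citric acid cycle, was lowest in the total fraction of unwounded cells, at 12.4, 12.8 and 15.4 CPM in replicates 1, 2 and 3. The cortical fraction of the same condition had 19.4, 27.8 and 27.8 CPM. No cortical library overlapped a total one in unwounded cells. In wounded cells the total fraction had 16.1, 18.0 and 22.2 CPM and the cortical fraction 20.5, 27.6 and 34.7, and these ranges overlapped. The cortical-to-total log2 fold was 0.88 (SE 0.21) in unwounded cells and 0.56 (SE 0.20) in wounded cells. All 3 wounded total libraries were above the unwounded total ones, by a log2 fold of 0.47 (SE 0.21), which did not pass the test (edgeR adjusted p = 0.137). It passed in 4 of the 27 other settings run, 1 of which left out the first wounded total library (0.57, edgeR adjusted p = 0.0448). In the cortical fraction the wound difference was 0.15 (SE 0.20, edgeR adjusted p = 0.774).

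Pcca, the biotin-carrying subunit of propionyl-CoA carboxylase, was most abundant in the cortical fraction of wounded cells, at 26.2, 25.2 and 23.5 CPM. The unwounded cortical libraries had 15.3, 20.7 and 16.2 CPM. Total libraries had 14.7, 12.8 and 11.8 CPM unwounded and 15.1, 15.6 and 17.5 wounded. The wounded cortical libraries were all above the unwounded cortical ones, a separation seen upward in 15.4% of all genes. The cortical-to-total log2 fold was 0.40 (SE 0.17) in unwounded and 0.64 (SE 0.16) in wounded cells, with no overlap between fractions in either. Wounding gave 0.52 in the cortical fraction (SE 0.16, 95% interval 0.18 to 0.87, a 1.44-fold difference), with an unadjusted p of 0.00523 and an edgeR adjusted p of 0.0969. It passed in the fit without the first wounded total library (0.53, edgeR adjusted p = 0.0386), where more genes passed in all. In the total fraction the difference was 0.29 (SE 0.16, edgeR adjusted p = 0.261).

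Mccc1, the biotin-carrying subunit of the leucine-pathway carboxylase, had 7.02, 4.85 and 6.36 CPM in unwounded total libraries and 6.49, 7.52 and 6.81 in unwounded cortical ones, which overlapped. Wounded total libraries had 4.33, 5.22 and 4.60 CPM, and wounded cortical libraries had 7.82, 7.99 and 10.2. The wounded cortical libraries were above the unwounded cortical ones, by a margin of 7.82 against 7.52 CPM, and above the wounded total ones. Of all genes, 15.4% and 16.2% separated upward in these comparisons. The cortical-to-total log2 fold was 0.19 (SE 0.25) in unwounded and 0.88 (SE 0.25) in wounded cells, and their difference was 0.69 (SE 0.35, 95% interval -0.06 to 1.43). Wounding gave -0.37 in the total fraction (SE 0.25, edgeR adjusted p = 0.369) and 0.32 in the cortical fraction (SE 0.25, edgeR adjusted p = 0.562).

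Pccb, the partner subunit of Pcca, rose with wounding in the total fraction. It went from 7.68, 7.0 and 10.3 CPM in unwounded to 17.6, 12.9 and 11.3 CPM in wounded total libraries, with no overlap. The log2 fold was 0.75 (SE 0.22, 95% interval 0.28 to 1.21), a 1.68-fold rise (edgeR adjusted p = 0.0288). The highest value came from the first wounded total library, and without it the fold was 0.54 and no longer passed (edgeR adjusted p = 0.0755). Leaving out unwounded total library 1 (0.69, edgeR adjusted p = 0.126) or 2 (0.62, edgeR adjusted p = 0.135) or wounded total library 2 (0.80, edgeR adjusted p = 0.0543) also ended the call. Cortical libraries had 9.85, 10.8 and 12.6 CPM unwounded and 12.8, 13.3 and 15.5 wounded, a log2 fold of 0.33 (SE 0.22, edgeR adjusted p = 0.486). The cortical-to-total log2 fold was 0.41 (SE 0.22) in unwounded cells and -0.01 (SE 0.22) in wounded cells.

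Mccc2, the partner of Mccc1, had 11.3, 10.4 and 11.2 CPM in unwounded total libraries. The cortical fraction of those cells spread more, at 12.7, 16.9 and 8.54 CPM. Wounded total libraries had 10.3, 9.43 and 8.40 CPM and wounded cortical ones 16.1, 9.81 and 17.4. The wounded total libraries were all below the unwounded ones, but by a log2 difference of only -0.23 (SE 0.25, edgeR adjusted p = 0.615). Wounding gave 0.18 in the cortical fraction (SE 0.25, edgeR adjusted p = 0.777). The cortical-to-total log2 fold was 0.22 (SE 0.25) in unwounded and 0.63 (SE 0.25) in wounded cells, with overlapping libraries in both.

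Hlcs, the enzyme that joins biotin to all of these carboxylases, was the least counted of the 6 in the first wounded total library, with 48 counts. It had 4.83, 4.46 and 7.60 CPM in unwounded total and 6.10, 6.69 and 9.36 in unwounded cortical libraries. Wounded total libraries had 2.85, 5.22 and 6.56 CPM and wounded cortical ones 10.6, 9.94 and 6.66. The fractions overlapped in unwounded cells and, by a margin of 6.56 against 6.66 CPM, did not in wounded cells. The cortical-to-total log2 fold was 0.38 (SE 0.33) and 0.89 (SE 0.33) respectively. Wounding gave -0.20 in the total fraction (SE 0.33, edgeR adjusted p = 0.748) and 0.30 in the cortical fraction (SE 0.33, edgeR adjusted p = 0.706).

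**Figure D3:**
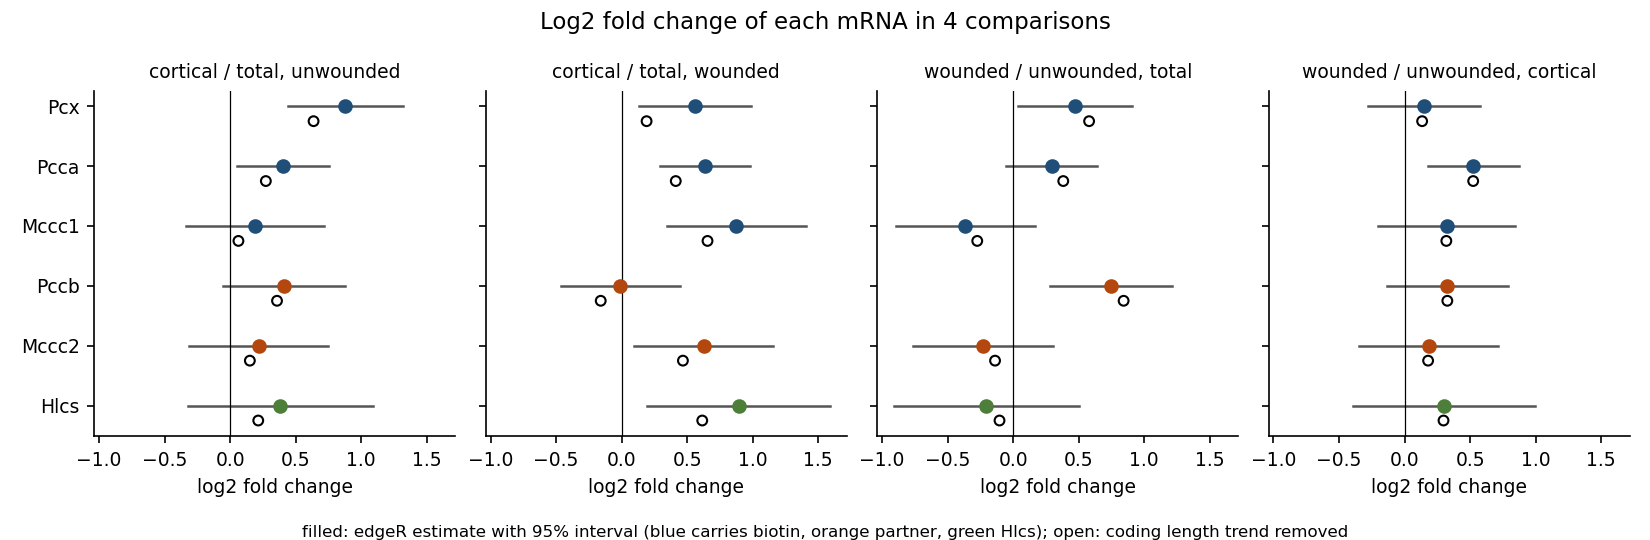
Log2 fold change (horizontal axes) of each mRNA in the 4 comparisons, with 95% intervals from edgeR (filled points) and the estimate after removing the trend with coding length (open points). Removing that trend, a fit chosen after seeing the data, takes Pcx in wounded cells from 0.56 to 0.19. Pccb keeps its wound difference in the total fraction. With the trend of deposited gene length removed instead (not drawn), Pcx is 0.44 in wounded cells.

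Across the 6 genes, wounding called 1 gene higher in the total fraction (Pccb), against 8.39% of all tested genes called higher there and 15.6% in either direction. Pcx passed there in other settings, which called more of all genes than the 2116 of 13571 here. They called 2484 with the deposited length trend removed and a replicate block, and 2656 of 11480 with the coding length trend removed. They called 3502 of 14073 without the first wounded total library, and 5206 of 13571 with voom and quality weights. In the cortical fraction edgeR called 0 of the 6, against 2.48% of all genes. DESeq2 also called 0, against 736 of all 13571 genes. In edgeR 1 had an unadjusted p under 0.05 (Pcca), beside 17.3% of all genes. The median log2 wound difference was 0.04 in the total and 0.31 in the cortical fraction, beside -0.03 and 0.02 over all genes. In the cortical fraction all 6 estimates were above 0, with 3 genes whose libraries did not overlap (Pcca, Mccc1 and Pccb), against 15.4% of all genes that separated upward. In the total fraction Pcx, Pcca and Pccb separated upward, against 14.5% of all genes, and Mccc2 downward, against 17.6%.

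For the fraction comparisons, which were known when the genes were proposed, the count past the threshold upward was 1 of 6 in unwounded cells (Pcx, beside 6.62% of all genes) and 2 of 6 in wounded cells (Pcca and Mccc1, beside 7.62%). These counts describe the values that were in view when the genes were taken up and are no test of them. Libraries separated upward for 2 of 6 in unwounded cells (Pcx and Pcca, beside 17.1% of all genes) and for 3 of 6 in wounded cells (Pcca, Mccc1 and Hlcs, beside 16.2%). The median log2 fold of the 6 was 0.39 in unwounded and 0.63 in wounded cells, beside 0.00 and 0.04 over all genes. Removing the trend of all genes with deposited gene length left Pcx at 0.87 in unwounded and 0.44 in wounded cells. Pcx has the longest coding sequence of the 6, with 3537 bases. The trend of all genes with coding length was also removed, in a fit chosen after seeing the data. In unwounded cells the folds became 0.64 for Pcx, 0.27 for Pcca and 0.06 for Mccc1. In wounded cells they became 0.19, 0.41 and 0.66. For Pccb, Mccc2 and Hlcs they became 0.36, 0.15 and 0.21 in unwounded cells. In wounded cells these 3 became -0.16, 0.47 and 0.61. Between the same fractions Acaca went from 39.4, 36.9 and 41.8 CPM to 477, 467 and 462 CPM in unwounded cells, a log2 fold of 3.57. In wounded cells it went from 44.3, 40.4 and 53.3 to 236, 203 and 210 CPM, a log2 fold of 2.23. With the coding length trend removed the Acaca folds were 3.20 and 1.69.

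The change of the cortical-to-total log2 ratio with wounding ran from -0.42 (SE 0.31) for Pccb to 0.69 (SE 0.35) for Mccc1. For Acaca the estimate was -1.34.

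**Figure D4:**
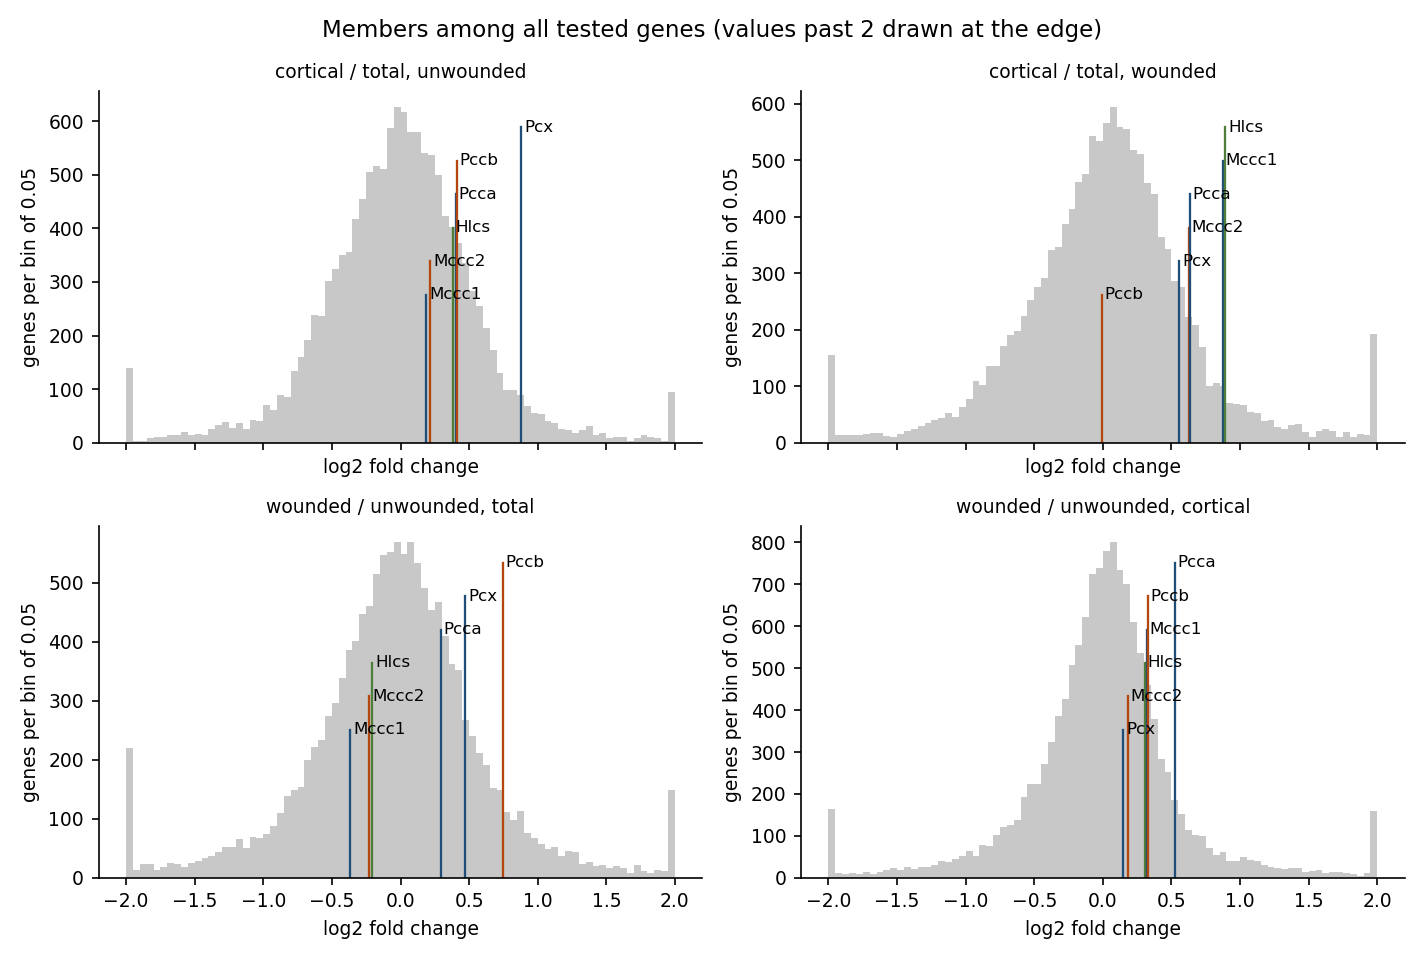
Log2 fold changes of all 13571 tested genes (grey, genes per bin of 0.05, values past 2 drawn at the edges) with the 6 genes as coloured lines whose height carries no value. The 6 lines lie within the range of all genes in the 4 comparisons, with Pcx farthest to the right of the 6 in unwounded cells and Pccb farthest to the right in wounded against unwounded total libraries.

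Since the subunits of an enzyme are measured in the same library, the carrier was also set against its partner on FPKM, where library scaling cancels. The Pcca to Pccb ratio was on average 0.869 in unwounded total, 0.844 in unwounded cortical, 0.642 in wounded total and 0.971 in wounded cortical libraries. Its log2 value differed with wounding by -0.44 in the total fraction (exact two-sided permutation p = 0.3) and by 0.21 in the cortical fraction (exact permutation p = 0.5). The smallest p that 3 against 3 libraries allow is 0.1, so this design cannot pass 0.05. The Mccc1 to Mccc2 ratio was 0.141, 0.150, 0.130 and 0.161 in the same order of groups. It differed with wounding by -0.12 in the total fraction (exact permutation p = 0.5) and by 0.12 in the cortical fraction (exact permutation p = 0.7). On the mRNA lengths above, the Mccc1 to Mccc2 ratio was 0.439 to 0.544 and the Pcca to Pccb ratio 1.08 to 1.63 over the group means. The SDs of the log2 ratios were 0.21 to 0.44.

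**Figure D5:**
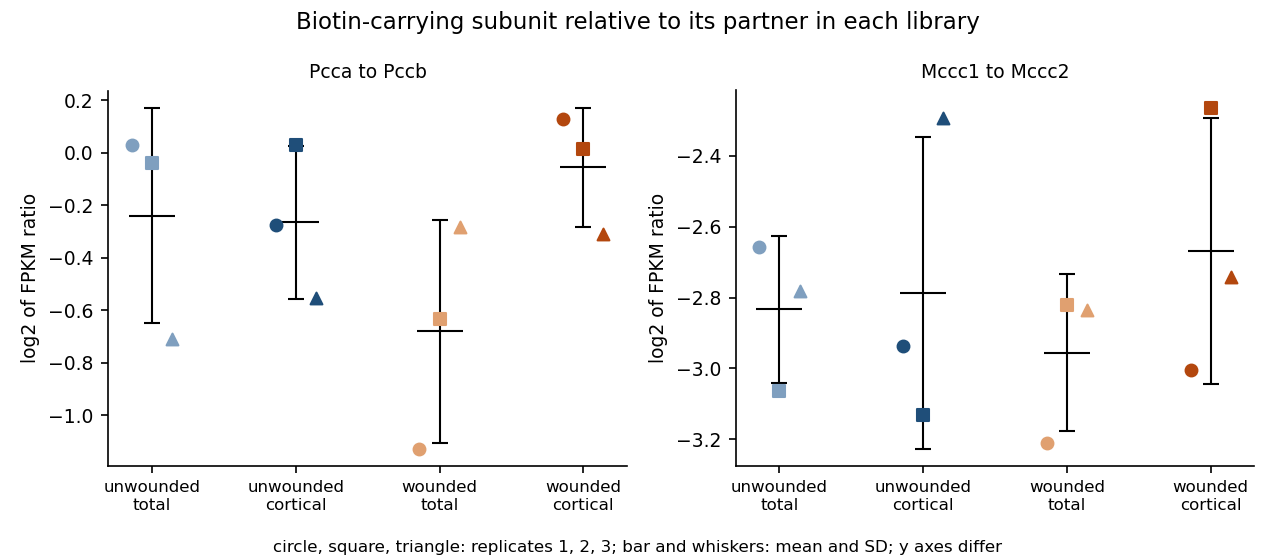
Log2 of the FPKM ratio of the biotin-carrying subunit to its partner (vertical axes, different ranges) in each library, with mean and SD, n = 3. The groups overlap within each fraction for both enzymes.

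The steps next to these enzymes were read from lists of pathway genes, whose counts stand beside these shares of all tested genes. Wounding called 8.39% higher and 7.2% lower in the total fraction, and 1.6% and 0.884% in the cortical fraction. The cortical fraction was called higher for 6.62% and lower for 7.59% in unwounded cells, and for 7.62% and 8.03% in wounded cells. The lists and the genes named from them were chosen with earlier results of these data known. Most genes were named by size of change among those called. Calls and p-values between fractions, here and in the lists below, therefore describe picked genes and are no test of them. The wounding p-values of the named genes are likewise not independent of that choice. Of 8 genes that take propionyl-CoA on to succinyl-CoA, 1 rose and 1 fell with wounding in the total fraction and 0 were called in the cortical fraction. Mcee, the epimerase that acts on the product of propionyl-CoA carboxylase, rose from 70.9 ± 7.44 to 132 ± 43.2 CPM (SD, n = 3), a log2 fold of 0.89 (SE 0.18, edgeR adjusted p = 0.00273). In wounded cells Mcee was lower in the cortical than in the total fraction, by -0.77 (edgeR adjusted p = 0.00828). Mmab, which makes the cobalamin cofactor of the next enzyme, fell by 0.50 on the log2 scale (edgeR adjusted p = 0.0164), and just missed the threshold without unwounded total library 3 (edgeR adjusted p = 0.0518). The list's median was 0.19, beside -0.03 for all genes.

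Of 20 tested genes of branched-chain amino acid breakdown, 4 rose and 0 fell with wounding in the total fraction (Hadha, Bcat2, Bckdha and Bckdhb), beside 15.6% of all genes called in either direction, and 2 rose in the cortical fraction (Bckdha and Acadsb). Bckdha and Bckdhb encode the decarboxylase of the branched-chain ketoacid dehydrogenase. Bckdha rose by 0.99 (SE 0.29, edgeR adjusted p = 0.0277) in the total and by 1.23 (SE 0.29, edgeR adjusted p = 0.0347) in the cortical fraction, on the log2 scale. Hadha, a subunit of the mitochondrial trifunctional protein of fatty acid oxidation, rose by 0.61 (edgeR adjusted p = 0.0240) but did not pass without the first wounded total library (0.32, edgeR adjusted p = 0.0704). Acadsb, a dehydrogenase of the isoleucine pathway, rose by 0.71 in the cortical fraction (edgeR adjusted p = 0.0394). Between fractions 1 gene was lower in the cortical one in unwounded cells, Hsd17b10 (-0.48, edgeR adjusted p = 0.0306), and 0 were called in wounded cells. These calls lie near the threshold. Of the 27 other settings, Bckdha passed in 22 (total) and 17 (cortical), Hadha in 19, Acadsb in 13 and Hsd17b10 in 15. Leaving out any 1 of the 6 unwounded libraries ended the calls of Acadsb and Hsd17b10. Bckdha lost its call in the total fraction without unwounded total library 1 or 2 or wounded total library 3. Its cortical call was lost without unwounded total library 1, unwounded cortical library 1 or 3, or wounded cortical library 1 or 3. Acadsb also lost its call without wounded total library 2 or any wounded cortical library, and Hadha without any 1 unwounded total library. The edgeR adjusted p in these fits rose to at most 0.175 for Acadsb, 0.135 (total) and 0.164 (cortical) for Bckdha, 0.117 for Hsd17b10 and 0.0961 for Hadha.

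Of 24 tested genes around pyruvate and oxaloacetate, the substrate and product of Pcx, 6 rose with wounding in the total fraction and 1 fell, beside 8.39% and 7.2% of all genes. Pck2, which turns oxaloacetate into phosphoenolpyruvate in mitochondria, rose from 111 ± 5.35 to 189 ± 9.51 CPM (log2 fold 0.77, edgeR adjusted p = 7.58e-05). Pck2 also rose by 0.49 in the cortical fraction (edgeR adjusted p = 0.0112), a call lost without unwounded cortical library 2 or wounded cortical library 2 or 3 (edgeR adjusted p up to 0.0728). Pdk2, a kinase that turns off pyruvate dehydrogenase, rose in the total fraction from 6.28 ± 1.04 to 17.1 ± 3.06 CPM (log2 fold 1.45, edgeR adjusted p = 4.21e-04). The cortical fraction showed no such rise of Pdk2 (log2 fold 0.06, edgeR adjusted p = 0.938). Mpc1, a subunit of the mitochondrial pyruvate carrier, fell in the total fraction from 6.28 ± 2.55 to 0.652 ± 0.707 CPM (log2 fold -3.25, edgeR adjusted p = 0.00712). The Mpc1 fold there was -4.50 to -1.58 over the other settings run. Mpc1 did not fall in the cortical fraction, with means of 2.44 CPM unwounded and 3.08 wounded (log2 fold 0.31, edgeR adjusted p = 0.872). Its partner Mpc2 was lower in the cortical than in the total fraction by -0.80 in unwounded and -0.78 in wounded cells (edgeR adjusted p = 0.00368 and 0.00444). Between fractions, 2 genes of the list were higher and 1 lower in the cortical one in unwounded cells, and 3 and 4 in wounded cells, beside the shares of all genes given above.

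Of 8 genes for lipoyl carriers and their lipoylation, another cofactor bound to a lysine, 1 was called: Dlat, a pyruvate dehydrogenase subunit, was higher in the cortical fraction of wounded cells by 0.54 (edgeR adjusted p = 0.00337). Dlat is also in the list around pyruvate and is counted in both. Of the 2 genes for biotin supply, the transporter Slc5a6 and biotinidase (Btd), 0 were called in any comparison. Without the first wounded total library, where 24.9% of all genes were called for wounding in the total fraction, the lists gave 2 up and 1 down (propionyl-CoA), 3 up (branched-chain), 8 up and 3 down (pyruvate) and 1 down (lipoyl, again Dlat, which is among the 3 of pyruvate). Btd then passed as well.

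The mRNAs whose log2 CPM followed each gene most closely over the 12 libraries were found among 8850 protein-coding genes, and these correlations also hold whatever the libraries share in group and depth. They were Kbtbd2 (Pearson r 0.952) and Kif5b (0.923) for Pcx, Klhl28 (0.955) and Abhd2 (0.929) for Pcca, and Osbp (0.917) and Sbf2 (0.900) for Mccc1. For the partner subunits they were Tbc1d2 (0.955) and Stat3 (0.934) for Pccb, and Blcap (0.881) and Myo9a (0.847) for Mccc2. For Hlcs they were Gatb (0.956) and Abcb8 (0.938). No gene was named for more than 1 of the 6.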

How the data were processed

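The authors deposited raw counts per gene and FPKM, 1 column per library, with the gene length in bases, per the file headers. Per the submitters' processing notes CASAVA and HISAT2 were used with mm10; the counting tool and annotation release are not given in the sources used here. In each library the deposited FPKM equalled the count divided by gene length and by an effective size of 0.825 to 1.10 times the total. Unused per-sample columns numbered 0, and no library repeated another.

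Count tests used edgeR 4.0.16 in R 4.3.3: filterByExpr, TMM factors and a quasi-likelihood fit of the 4 group means to all 12 libraries. Tests were two-sided with Benjamini-Hochberg adjustment over 13571 genes at 0.05. Log2 CPM used a prior count of 2. Alternatives used limma 3.58.1 and DESeq2 1.42.0, other scalings and filters, length trends, and leaving out each library. Voom with quality weights and the coding length trend were chosen after seeing the data. Scripts were tested on simulated data for wounding in the total fraction. There edgeR recovered 42.6% of changes of 1 log2 unit and 8.97% of smaller ones, so small differences were mostly missed. Of its calls 5.88% were false, and 3.61% to 15.6% over the other fits.

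Named genes were the 6 genes, Acaca, up to 4 called genes per pathway list by size of change, and the 2 genes most correlated with each of the 6 (mean of at least 100 counts). Bcat2 and Bckdhb were named to complete a count, after their values were seen. Genes and lists were chosen with earlier results of these data known.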

Additional observations from a re-analysis of the deposited data

How the results depend on the processing

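The 6 genes had 48 to 709 counts per library and, in the 4 comparisons between pairs of groups, standard errors of 0.16 to 0.33 log2 units. Nothing is read from counts past the threshold for cortical to total, whose values were known beforehand. Same-numbered deviations correlated by -0.0308 to 0.00898 in unwounded and -0.0156 to -0.00759 in wounded fraction comparisons. For wounding they correlated by -0.0139 to 0.219 in the total and -0.0188 to 0.00435 in the cortical fraction. In the same order, 1, 0, 4 and 0 of 6 libraries correlated best with their own number. The replicate numbers thus showed no pairing except, in part, for wounding in the total fraction. There replicates 1 and 2 gave 0.150 and 0.219 and may be paired. With the replicate block the counts past the threshold were 1 and 0 for wounding in the total and cortical fractions (1 and 3 for cortical to total in unwounded and wounded cells), and the Pccb wound difference was 0.76 (edgeR adjusted p = 0.0343). Under the block the ratio differences keep their values by construction, so this is no check of them. The exact sign-flip p were 0.5, 0.5, 0.75 and 1, and 3 pairs cannot bring this p under 0.05.

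The count past the threshold for cortical to total in unwounded cells was 1, and became 2 with library size only and 0 with the coding length trend removed (1 in all fits that left out a library). In wounded cells it was 2, and became 5 with library size only or voom quality weights, 1 with FPKM plus 0.1 or only the groups compared, 0 with the length trend removed, with or without the block, or the coding length trend removed, and 0 to 3 leaving out a library: 0 without wounded total library 2, 1 without wounded total library 3 or wounded cortical library 3, and 3 without wounded cortical library 2. For wounding in the total fraction it was 1, and became 0 with library size only or only the groups compared, 2 with the length trend and block, the coding length trend, or voom, and 0 to 1 leaving out a library. In the cortical fraction it was 0, and became 1 with voom and 0 to 1 leaving out a library. Calls over all 13571 genes also rose with voom: 2124 to 4441 (wounded fractions), 2116 to 5206 (wounding, total) and 337 to 1316 (cortical). Library size only moved the median of all genes from 0.00 to 0.19, from 0.04 to 0.25, from -0.03 to -0.10 and from 0.02 to -0.04, and gave 1582 of 2051, 2203 of 2723, 708 of 1812 and 108 of 199 calls as higher.

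The Pccb wound difference passed in 21 of 27 alternatives (0.54 to 0.92, edgeR, DESeq2 or limma adjusted p 0.00495 to 0.135). The wound difference of the Mccc1 to Mccc2 ratio ran from -0.24 to 0.0060 in the total and from -0.0856 to 0.36 in the cortical fraction leaving out a library, with -0.0553 without unwounded cortical library 2. The Hlcs wound difference in the total fraction ran from -0.48 to 0.07 leaving out a library; it turned to 0.0670 without unwounded total library 3, 0.0682 without wounded total library 1 and 0.0705 with voom. In the cortical fraction Pcx (up to 0.33 leaving out a library) turned to -0.00908 without unwounded cortical library 1 and -0.0506 without wounded cortical library 3, and Mccc2 (up to 0.43) to -0.0254 without unwounded cortical library 3. The causes were not tested.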
